A study of Danio rerio with 8 samples.

Results

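The calcium handling and ion channel genes of the adult zebrafish heart were described across 8 RNA libraries of sorted ventricle cells. A list of 52 gene names gave the members. It held the genes of sarcoplasmic reticulum calcium release and uptake, calcium, sodium and potassium channels, the sodium-potassium pump and gap junctions. It also held Popeye domain genes and the calcium store genes of inositol trisphosphate receptors, STIM and ORAI proteins. Names were matched without regard to case by symbol, by synonym, or by symbol without the paralog letter. Of the 52 names, 51 matched 60 of the 31388 gene identifiers, and 48 identifiers reached at least 1 TPM in at least 2 libraries. TPM is a transcript level corrected for transcript length and scaled to one total per library. The name scn5lab matched no identifier. The names ryr2a and ryr2b share 1 identifier, RYR2. Each of the pairs slc8a1a and slc8a1b, atp1b1a and atp1b1b, and hcn4 and hcn4l matches the same 2 identifiers, and which identifier belongs to which paralog was not settled.

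The fish carried Tg(-6.8wt1a:EGFP), a transgene in which sequence upstream of wt1a, a transcription factor gene of the epicardium, drives green fluorescent protein (GFP). They were adults of 3 to 9 months, received no treatment, and 3 to 5 ventricles were pooled for each sample. Each of 4 numbered pools gave a library of cells labelled GFP-positive and a library of cells labelled GFP-negative, 4 libraries of each kind. All 8 libraries come from the same transgenic line, so there is no library without the transgene, and every library is a pool of animals. Below, GFP-positive and GFP-negative are the labels of the libraries. The study asked how the cells marked by the transgene differ from the other cells of the ventricle. The label comparison is therefore the study's own, while the contrast of pools 1 and 2 with pools 3 and 4 was drawn from earlier results of these data, and the labels give no property, beyond the number, that sets these pools apart.

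In a heart muscle cell the action potential opens L-type calcium channels, and the calcium that enters opens ryanodine receptors of the sarcoplasmic reticulum, the internal calcium store, so that calcium floods the cell and the filaments contract. Relaxation follows when the calcium pump SERCA returns calcium to the store, under restraint by phospholamban, and the sodium-calcium exchanger expels the rest using the sodium gradient that the sodium-potassium pump maintains. Gap junctions carry the impulse between cells, and potassium channels end it. Cells other than muscle also hold calcium in stores, which they release through inositol trisphosphate receptors and refill through STIM and ORAI proteins.

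The libraries did not separate by their labels in the gene whose upstream sequence drives the transgene. wt1a (listed as WT1, ENSDARG00000031420) had 1.15 and 2.59 TPM in the GFP-positive and 2.42 and 1.42 TPM in the GFP-negative libraries of pools 1 and 2, against 71.3 and 39.5 TPM in the GFP-positive and 107 and 44.3 TPM in the GFP-negative libraries of pools 3 and 4. In 3 of 4 pools the GFP-negative library held more wt1a than its GFP-positive partner, so the labels stand here as labels alone. The sequencing depth is unknown, and 12332 to 14783 genes reached 1 TPM per library. Markers of several cell types moved with the pools. Called refers here to the test among pools described below. That test called 12.9% of all tested genes, 7.85% with pools 1 and 2 highest and 4.55% with pools 3 and 4 highest. Summed over the 8 identifiers of a cardiomyocyte list the level was 16466 to 21975 TPM across pools 1 and 2 and 1224 to 3917 TPM across pools 3 and 4, and all 6 tested identifiers were called and highest in pools 1 and 2. The 6 endothelial markers summed to 152 to 257 TPM across pools 1 and 2 and 59.3 to 119 TPM across pools 3 and 4 (5 of 6 called, highest in pools 1 and 2). The marker not called, NFATC1, went the other way as deposited, at 18.3 to 32.2 TPM across pools 1 and 2 and 36.2 to 83.6 TPM across pools 3 and 4. With TPM as deposited, 4 endothelial markers were called with pools 1 and 2 highest and 1, NFATC1, with pools 3 and 4 highest. The 4 erythrocyte markers summed to 644 to 1503 TPM across pools 1 and 2 and 5.95 to 31.5 TPM across pools 3 and 4 (3 of 3 called). Fibroblast markers, 6 genes, stood at 107 to 179 TPM across pools 1 and 2 and 2249 to 4978 TPM across pools 3 and 4 (5 of 6 called, highest in pools 3 and 4). For the 5 epicardium markers the sums were 50.4 to 137 TPM across pools 1 and 2 and 224 to 453 TPM across pools 3 and 4 (5 called, 4 of them highest in pools 3 and 4). For the 8 smooth muscle and pericyte identifiers they were 66.1 to 92 TPM across pools 1 and 2 and 449 to 769 TPM across pools 3 and 4 (4 of 7 called, 3 highest in pools 3 and 4). Macrophage sums overlapped, at 116 to 207 TPM across pools 1 and 2 and 65.2 to 187 TPM across pools 3 and 4 (1 of 5 called). The thrombocyte list summed to 5.13 to 8.36 TPM across pools 1 and 2 and 3.07 to 5.71 TPM across pools 3 and 4. The neural list summed to 1.04 to 6.04 TPM across pools 1 and 2 and 15.8 to 22.5 TPM across pools 3 and 4. Only 1 thrombocyte and 2 neural identifiers were tested, and none was called. Among these markers, the endothelial TIE1 and pecam1a and the smooth muscle acta2 were each at 0 in 1 library. The cardiomyocyte genes TNNI1 and TNNT2 and the smooth muscle MYH11 each had 1 identifier above 0 in all 8 libraries and a second at 0 in 5 libraries, as had the erythrocyte SLC4A1 with its second at 0 in 1 library. Of the other lists, the macrophage gene MPEG1 was at 0 in 2 and 6 libraries for 2 of its 3 identifiers. The thrombocyte genes itga2b and mpl were at 0 in 4 and 3 libraries. The neural genes ELAVL3 and SOX10 were at 0 in 7 and 4, with SNAP25 in 1 and 8 for its 2 identifiers. The part of these cell mixtures in the differences below was not tested, and in pooled cells fewer cells of a type and less RNA per cell cannot be told apart.

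Of the tested genes, 7 of 8 for calcium release from the store, 2 of 3 for uptake into it and the 1 tested sodium-calcium exchanger gene differed among the pools and were highest in pools 1 and 2, in libraries of both labels. The summed level of all 48 members was 2105 to 3140 TPM across pools 1 and 2 and 599.2 to 1078 TPM across pools 3 and 4. Of the 48, the 39 that reached 1 TPM in 4 or more libraries were tested, with limma, a linear model fitted over all 13877 genes that met this level, on log2(scaled TPM + 1) with pool as a block. A gene is called where the Benjamini-Hochberg adjusted p of an F test among the 4 pools is under 0.05. Called genes numbered 22 of 39 members, against 12.9% of all tested genes. In 21 of the 22 both pools 1 and 2 had higher means than both pools 3 and 4, against 7.85% of all tested genes, and in 1 the order was opposite, against 4.55%. In 27 of 39 members all 4 libraries of pools 1 and 2 lay above all 4 of pools 3 and 4 (14.5% of all genes), and in 2 the reverse held (12.1%). Without the GFP-negative library of pool 3, which stood apart in earlier work on these data, the set of called members changed. In that fit pool 3 is 1 library. CACNA1G, kcnq1.1 and GJA5 (ENSDARG00000040065) lost the call, with differences of 1.83, 1.90 and 1.78. gja4 gained it, with a difference of 1.39. The spread in this test comes from the 2 libraries of a pool, which share their hearts, so how far other sets of hearts would vary is not part of its p-values.

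The scaling of the libraries bears on these counts. On the scaled values the median difference between pools 1 and 2 and pools 3 and 4 was 1.76 for the members and 0.03 for all tested genes (log2). With TPM as deposited, the median over all genes shifted to -0.80 and that of the members to 0.88, so the distance between members and all genes was 1.74 with scaling and 1.68 without. As deposited, 20 members were called, 16 with pools 1 and 2 highest and 4 with pools 3 and 4 highest, against 28.9%, 4.68% and 22.6% of all genes. All 16 were among the 21 called with scaling. The members entirely above in pools 1 and 2 numbered 15 (6.26% of all genes), and those entirely above in pools 3 and 4 numbered 7 (33.4%). Levels printed per library are TPM as deposited, and differences are on the log2(scaled TPM + 1) scale unless named as deposited. On this scale the fold of low genes is understated. The order of several genes depends on the scaling, and this is not stated for each of them. Of the tested members, 10 reached 1 TPM in fewer than 4 libraries of pools 3 and 4 and 6 in fewer than 4 of pools 1 and 2, and each had at least 1 library at that level in both pairs of pools.

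**Figure D1:**
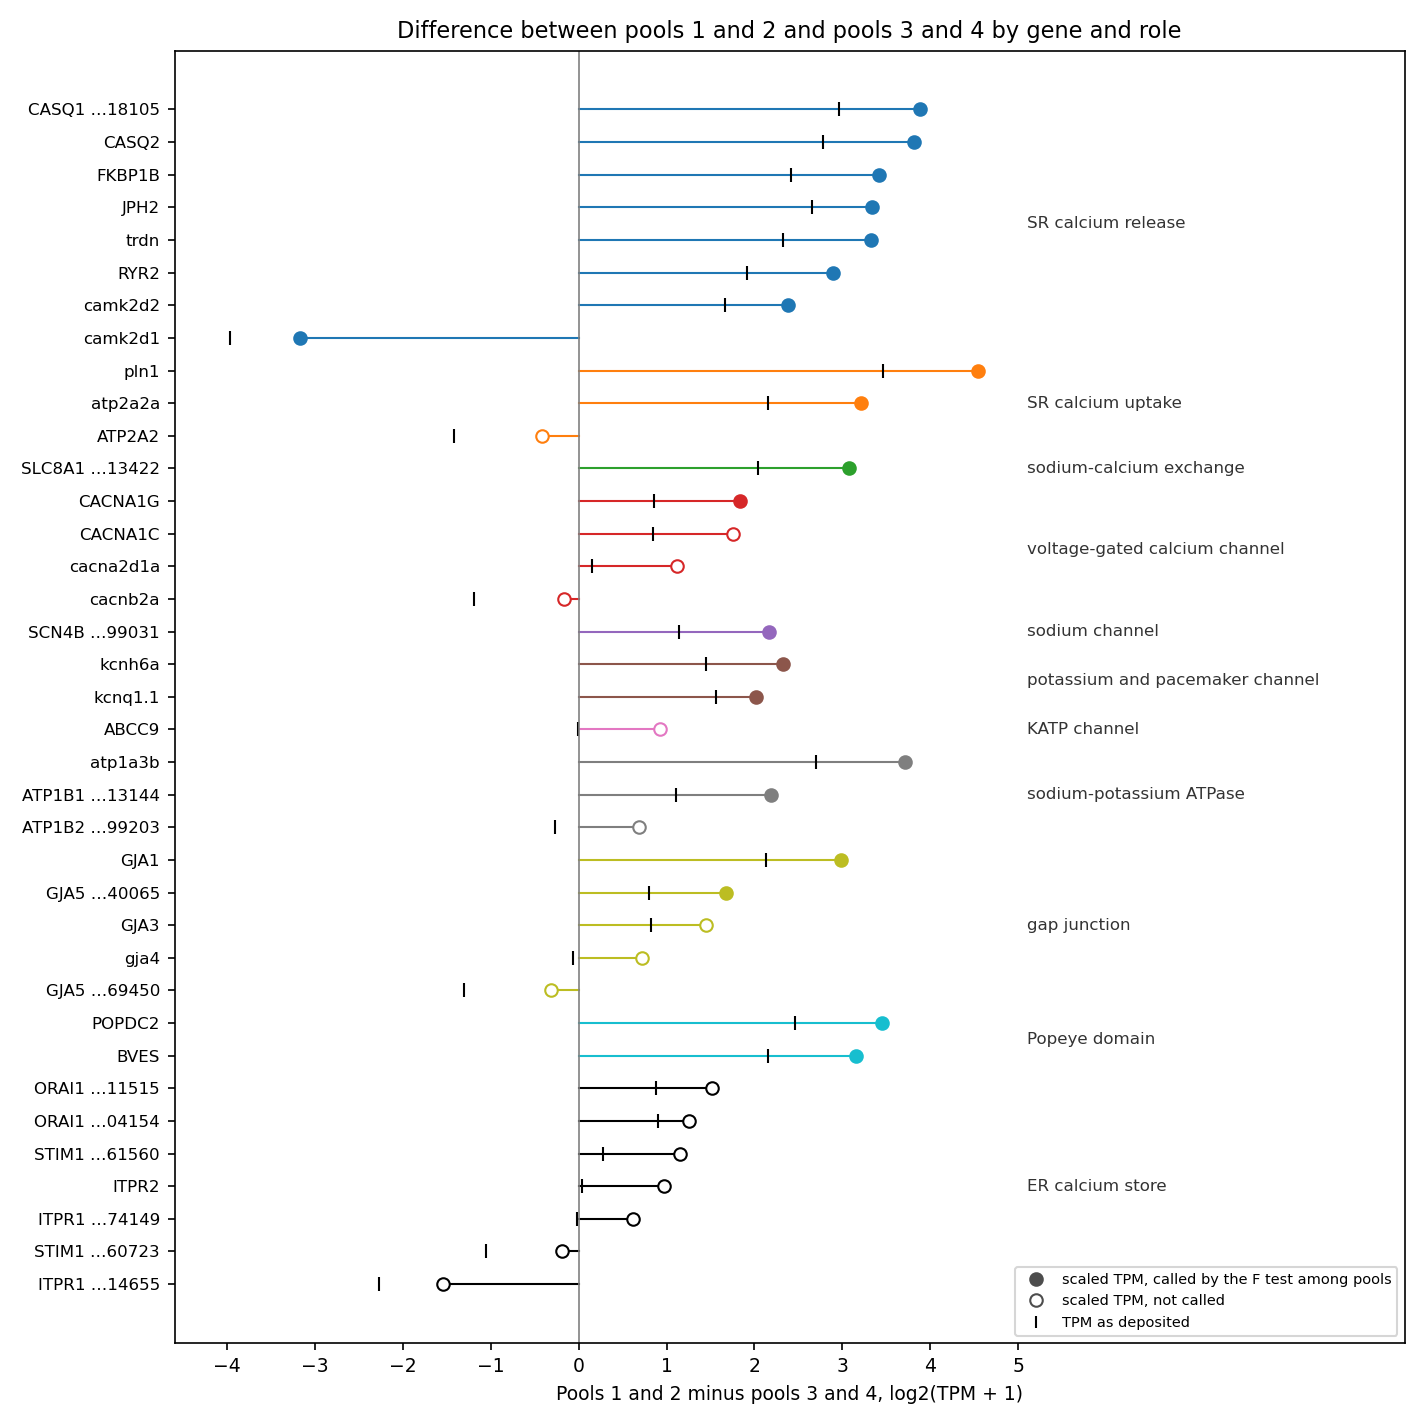
Difference in mean log2(TPM + 1) between pools 1 and 2 and pools 3 and 4 (x axis) for 37 of the 39 tested identifiers, grouped by role. Circles are scaled TPM, filled where the F test among pools called the gene, and ticks are TPM as deposited. All 8 calcium release genes are filled, 7 to the right and camk2d1 to the left, the calcium store genes are all open, and the ticks lie left of the circles throughout. The F test called 12.9% of all tested genes.

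All 8 tested genes of calcium release from the sarcoplasmic reticulum were called among the pools, 7 with pools 1 and 2 highest and 1 with pools 3 and 4 highest. Of all tested genes 12.9% were called, 7.85% with pools 1 and 2 highest and 4.55% with pools 3 and 4 highest. CASQ2 (ENSDARG00000008982), the cardiac calsequestrin that buffers calcium inside the store, had 90.8 and 144 TPM in the GFP-positive and 105 and 119 TPM in the GFP-negative libraries of pools 1 and 2, against 9.75 and 19.2 TPM in the GFP-positive and 20.5 and 15.2 TPM in the GFP-negative libraries of pools 3 and 4. CASQ1 (ENSDARG00000018105), matched to casq1a, a second calsequestrin, had 24.3 and 41.1 TPM in the GFP-positive and 31.03 and 39.6 TPM in the GFP-negative libraries of pools 1 and 2, against 2.91 and 0.05 TPM in the GFP-positive and 10.8 and 6.77 TPM in the GFP-negative libraries of pools 3 and 4. trdn (ENSDARG00000041779), triadin, which ties calsequestrin to the release channel, had 42.9 and 75.7 TPM in the GFP-positive and 78.7 and 60.7 TPM in the GFP-negative libraries of pools 1 and 2, against 3.02 and 16.1 TPM in the GFP-positive and 20.97 and 15.96 TPM in the GFP-negative libraries of pools 3 and 4. For each of these 3 genes the lowest library of pools 1 and 2 was above the highest of pools 3 and 4. The differences were 3.81 for CASQ2 (limma F test among pools, adjusted p = 0.00102), 3.88 for CASQ1 (adjusted p = 0.00725) and 3.33 for trdn (adjusted p = 0.00653). CASQ1 missed the threshold with a pseudocount of 0.1 (adjusted p = 0.0553) and with no filter on low values (adjusted p = 0.053).

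Within pools 3 and 4 the release genes also varied. The GFP-positive library of pool 3 was the lowest of all for CASQ2 and trdn, while the GFP-positive library of pool 4 was the lowest for CASQ1. FKBP1B (ENSDARG00000052625), the calstabilin that binds the ryanodine receptor, had 42.3 and 59.97 TPM in the GFP-positive and 63.1 and 56.4 TPM in the GFP-negative libraries of pools 1 and 2, against 16.96 and 8.02 TPM in the GFP-positive and 9.71 and 6.06 TPM in the GFP-negative libraries of pools 3 and 4, and here the GFP-positive library of pool 3 was the highest of its pair of pools. The groups did not overlap, and the difference was 3.42 (limma F test, adjusted p = 0.00143). RYR2 (ENSDARG00000003706), the cardiac ryanodine receptor itself, ranged over 25 to 34.9 TPM across pools 1 and 2 and 4.71 to 11.6 TPM across pools 3 and 4, a difference of 2.89 (adjusted p = 0.00203). JPH2 (ENSDARG00000028625), junctophilin, which holds the store membrane close to the surface membrane, ranged over 10.5 to 17.5 TPM across pools 1 and 2 and 0 to 4.16 TPM across pools 3 and 4 and was listed at 0 in the GFP-negative library of pool 3. Its difference was 3.34 (limma F test, adjusted p = 0.00269).

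The paralogs of calcium/calmodulin-dependent kinase II delta, a kinase that phosphorylates the release channel and phospholamban, were highest in opposite pools. camk2d1 (ENSDARG00000043010) had 3.06 and 0.48 TPM in the GFP-positive and 0.28 and 1.05 TPM in the GFP-negative libraries of pools 1 and 2, against 57.5 and 20.97 TPM in the GFP-positive and 32.2 and 21.04 TPM in the GFP-negative libraries of pools 3 and 4. All libraries of pools 3 and 4 stood above all of pools 1 and 2, with and without scaling. The difference was -3.17 (limma F test among pools, adjusted p = 0.0146), and it missed the threshold with no filter on low values (adjusted p = 0.0739). camk2d2 (ENSDARG00000014273) ranged over 3.81 to 8.01 TPM across pools 1 and 2 and 0.39 to 3.83 TPM across pools 3 and 4, a difference of 2.38 (adjusted p = 0.0219). The call of camk2d2 was lost as deposited (limma F test, adjusted p = 0.0645) and with no filter on low values. It was also lost without pool 1, pool 2 or pool 3 (adjusted p = 0.0606, 0.0731 and 0.0562). As deposited its groups met, since the GFP-positive library of pool 4 lay just above the GFP-negative library of pool 1.

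Calcium uptake into the store also differed between paralogs. pln1 (ENSDARG00000069404), phospholamban, the inhibitor of the calcium pump, had the highest mean level of the members, with 1073 and 1659 TPM in the GFP-positive and 1415 and 1601 TPM in the GFP-negative libraries of pools 1 and 2, against 86.3 and 146 TPM in the GFP-positive and 184 and 114 TPM in the GFP-negative libraries of pools 3 and 4. The GFP-positive library of pool 1 was the lowest of its pair of pools and still lay far above the highest library of pools 3 and 4. Its difference of 4.54 (limma F test among pools, adjusted p = 0.0007) was the largest of the tested members. atp2a2a (ENSDARG00000029439), the SERCA pump of heart muscle, had 158 and 217 TPM in the GFP-positive and 153 and 236 TPM in the GFP-negative libraries of pools 1 and 2, against 22.02 and 33.1 TPM in the GFP-positive and 80.8 and 49.9 TPM in the GFP-negative libraries of pools 3 and 4. The groups did not overlap, the GFP-negative library of pool 3 was the highest of pools 3 and 4, and the difference was 3.21 (adjusted p = 0.00269).

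The second pump gene, ATP2A2 (ENSDARG00000005122), matched to atp2a2b, had 4.98 and 9.24 TPM in the GFP-positive and 9.52 and 10.5 TPM in the GFP-negative libraries of pools 1 and 2, against 27.1 and 27.8 TPM in the GFP-positive and 28.1 and 15.3 TPM in the GFP-negative libraries of pools 3 and 4. As deposited all of pools 3 and 4 lay above all of pools 1 and 2, with a difference of -1.42 (limma F test, adjusted p = 0.0436). With scaling the libraries overlapped and the gene was not called (difference -0.42, adjusted p = 0.713). The gene matched to sln, sarcolipin, another small inhibitor of the pump, stayed below 1 TPM in at least 7 of the 8 libraries.

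**Figure D2:**
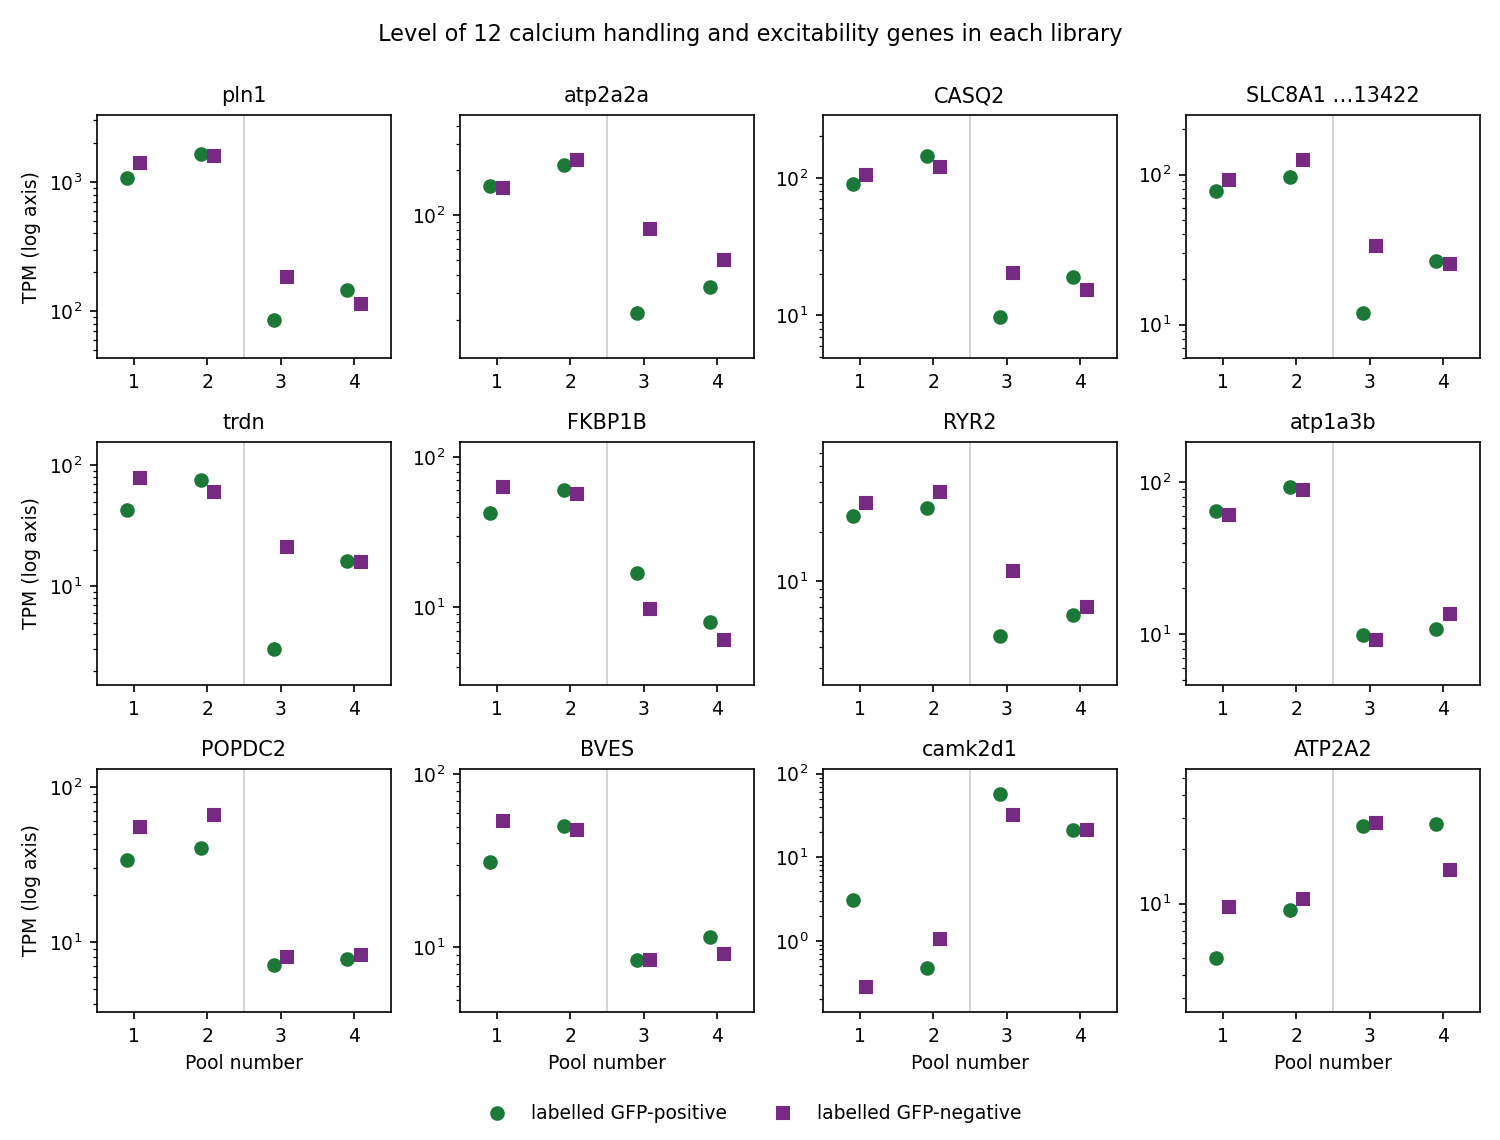
TPM as deposited (log axis) of 12 members in each library, by pool number (x axis). Circles are libraries labelled GFP-positive and squares libraries labelled GFP-negative, and a grey line parts pools 1 and 2 from pools 3 and 4. For pln1, atp2a2a, CASQ2, SLC8A1, trdn, FKBP1B, RYR2, atp1a3b, POPDC2 and BVES all points of pools 1 and 2 lie above those of pools 3 and 4, while camk2d1 and, as deposited, ATP2A2 show the reverse.

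Ratios and shares taken within a library do not depend on how libraries are scaled. camk2d1 made up this share of the summed TPM of camk2d1 and camk2d2: 30.3% and 5.65% in the GFP-positive and 6.85% and 13.5% in the GFP-negative libraries of pools 1 and 2, against 97.6% and 84.6% in the GFP-positive and 98.2% and 98.2% in the GFP-negative libraries of pools 3 and 4. The leading paralog thus differed between the pools, camk2d2 in all libraries of pools 1 and 2 and camk2d1 in all of pools 3 and 4. atp2a2a made up this share of the sum of atp2a2a and ATP2A2: 97% and 95.9% in the GFP-positive and 94.2% and 95.7% in the GFP-negative libraries of pools 1 and 2, against 44.9% and 54.4% in the GFP-positive and 74.2% and 76.5% in the GFP-negative libraries of pools 3 and 4. In pools 3 and 4 the GFP-positive libraries had the lower shares, and in the GFP-positive library of pool 3 atp2a2a was the smaller part. The ratio of pln1 to atp2a2a was 6.77 and 7.65 in the GFP-positive and 9.23 and 6.78 in the GFP-negative libraries of pools 1 and 2, against 3.92 and 4.42 in the GFP-positive and 2.28 and 2.29 in the GFP-negative libraries of pools 3 and 4. It was higher in every library of pools 1 and 2, and within pools 3 and 4 higher in the GFP-positive libraries. The ratio of CASQ2 to RYR2 was 3.41 to 5.18 across pools 1 and 2 and 1.77 to 3.06 across pools 3 and 4. Other ratios overlapped: FKBP1B to RYR2 was 1.61 to 2.16 across pools 1 and 2 and 0.839 to 3.6 across pools 3 and 4, and trdn to CASQ2 was 0.472 to 0.749 across pools 1 and 2 and 0.31 to 1.05 across pools 3 and 4. SLC8A1 (ENSDARG00000013422) to atp2a2a was 0.446 to 0.604 across pools 1 and 2 and 0.413 to 0.805 across pools 3 and 4, so the exchanger and the pump of heart muscle kept overlapping proportions while both levels differed. These shares and ratios are descriptions of 8 libraries, with no test.

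**Figure D3:**
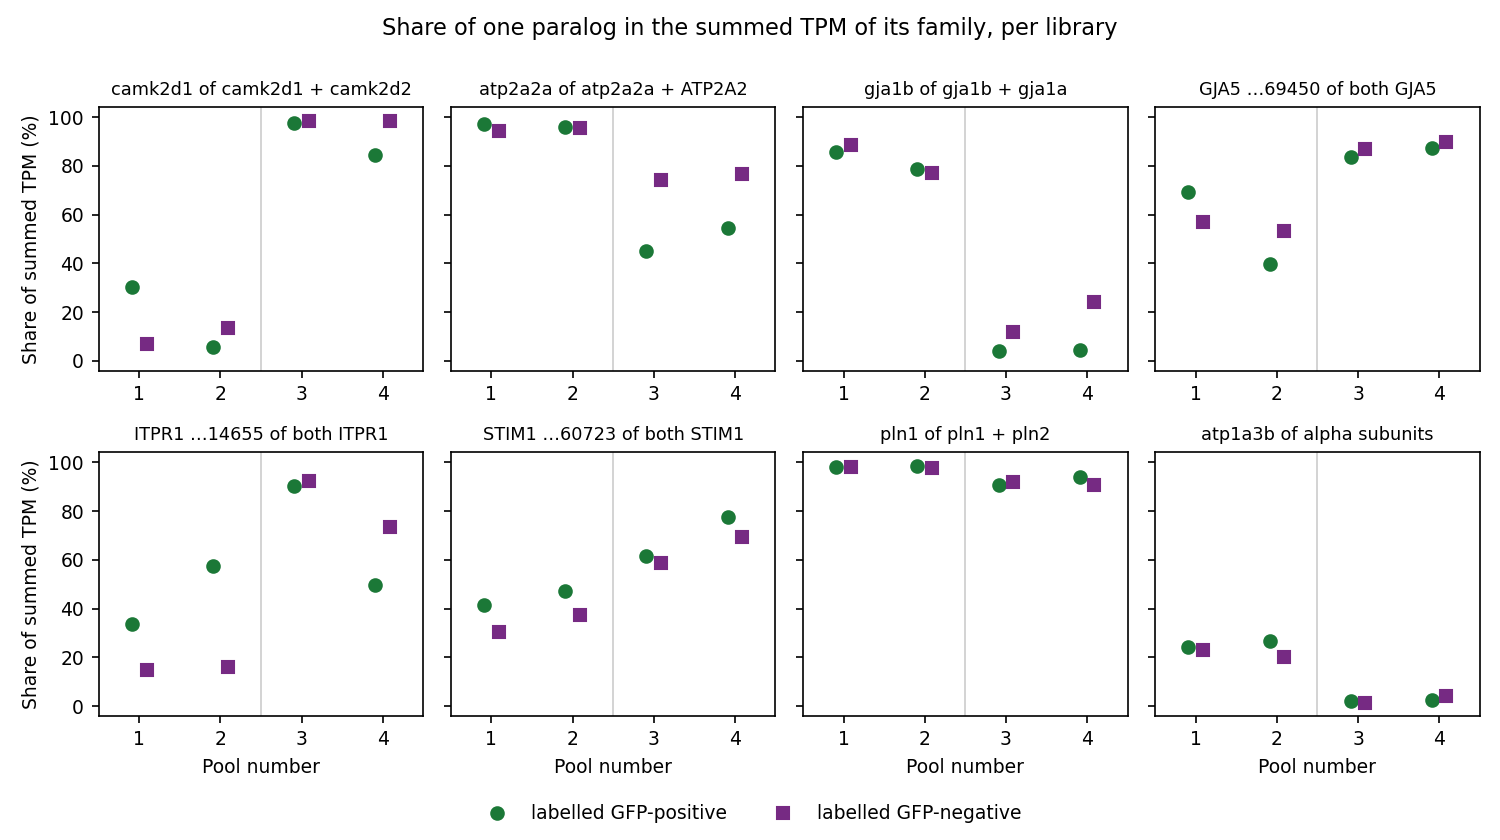
Share of 1 gene in the summed TPM of its paralogs (y axis, percent) in each library, by pool number (x axis). Circles are libraries labelled GFP-positive and squares libraries labelled GFP-negative, and a grey line parts pools 1 and 2 from pools 3 and 4. camk2d1 stays at or below 30.3% in pools 1 and 2 and at or above 84.6% in pools 3 and 4, and gja1b at or above 77.2% and at or below 24.3%. The shares of the ITPR1 identifier overlap between the pools.

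The sodium-calcium exchanger was also highest in pools 1 and 2. SLC8A1 (ENSDARG00000013422), 1 of 2 identifiers matched to slc8a1a and slc8a1b, had 78.05 and 96.7 TPM in the GFP-positive and 92.5 and 125 TPM in the GFP-negative libraries of pools 1 and 2, against 11.9 and 26.6 TPM in the GFP-positive and 33.4 and 25.3 TPM in the GFP-negative libraries of pools 3 and 4. The groups did not overlap, the GFP-positive library of pool 3 was the lowest of all, and the difference was 3.08 (limma F test among pools, adjusted p = 0.00155). The other identifier, SLC8A1 (ENSDARG00000043406), was too low for the test, at 0.69 to 4.71 TPM across pools 1 and 2 and 0 to 0.92 TPM across pools 3 and 4. ENSDARG00000013422 made up 96.4% to 99.3% across pools 1 and 2 and 96.7% to 100% across pools 3 and 4 of the SLC8A1 sum.

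Of 4 tested channel genes for calcium entry through the surface membrane 1 was called, against 12.9% of all tested genes. Over only 4 genes this count cannot be set apart from that share. With scaling, 3 of the 4 had all libraries of pools 1 and 2 above all of pools 3 and 4, against 14.5% of all tested genes. CACNA1G (ENSDARG00000089913), the pore of a T-type channel, had 8.94 and 16.7 TPM in the GFP-positive and 17.2 and 22.1 TPM in the GFP-negative libraries of pools 1 and 2, against 9.6 and 7.33 TPM in the GFP-positive and 12.1 and 4.94 TPM in the GFP-negative libraries of pools 3 and 4. As deposited the groups overlapped, and with scaling they did not. The difference was 1.84 (limma F test, adjusted p = 0.0209), and the call was lost as deposited (adjusted p = 0.108), without pool 2 (adjusted p = 0.107), without the GFP-negative library of pool 3 (adjusted p = 0.053) and with no filter on low values (adjusted p = 0.0652). CACNA1C (ENSDARG00000008398), the pore of the cardiac L-type channel, had 7.7 and 9.81 TPM in the GFP-positive and 6.74 and 13.4 TPM in the GFP-negative libraries of pools 1 and 2, against 5.22 and 2.46 TPM in the GFP-positive and 4.9 and 6.9 TPM in the GFP-negative libraries of pools 3 and 4. Its groups met as deposited and separated with scaling. The difference of 1.76 missed the threshold (adjusted p = 0.0548), but passed it without pool 4 (adjusted p = 0.0399), with a pseudocount of 5 (adjusted p = 0.0409) and with a filter of at least 5 TPM in 4 libraries (adjusted p = 0.039).

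Neither of the tested auxiliary subunits of the calcium channels among the members was called with scaling. cacna2d1a (ENSDARG00000014804), an alpha2delta subunit, had 8.47 and 8.29 TPM in the GFP-positive and 9.12 and 11.9 TPM in the GFP-negative libraries of pools 1 and 2, against 10.7 and 7.63 TPM in the GFP-positive and 8.8 and 6.66 TPM in the GFP-negative libraries of pools 3 and 4. The difference of 1.12 was not called (limma F test, adjusted p = 0.12) and was 0.15 as deposited. cacnb2a (ENSDARG00000099045), a beta subunit, had 9.08 and 16.1 TPM in the GFP-positive and 11.7 and 16.5 TPM in the GFP-negative libraries of pools 1 and 2, against 25.8 and 30.8 TPM in the GFP-positive and 40.7 and 28.6 TPM in the GFP-negative libraries of pools 3 and 4. As deposited all of pools 3 and 4 were above all of pools 1 and 2, with a difference of -1.19 (adjusted p = 0.028). With scaling they overlapped, at -0.17 (adjusted p = 0.589). cacnb2b and cacna1da, the matches of a second beta subunit and of another L-type pore, did not reach 1 TPM in 2 libraries.

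Sodium channel genes of the list were represented by beta subunits, small proteins that modify the pore. SCN4B (ENSDARG00000099031), matched to scn4bb, had 25.1 and 34.1 TPM in the GFP-positive and 35.1 and 42.4 TPM in the GFP-negative libraries of pools 1 and 2, against 18.4 and 11.3 TPM in the GFP-positive and 16.6 and 13.6 TPM in the GFP-negative libraries of pools 3 and 4. Pools 1 and 2 lay above pools 3 and 4 without overlap, with a difference of 2.16 (limma F test among pools, adjusted p = 0.00353). The other identifier with that symbol, SCN4B (ENSDARG00000060319), was not tested and had 0 and 0 TPM in the GFP-positive and 0 and 0.08 TPM in the GFP-negative libraries of pools 1 and 2, against 10.6 and 0 TPM in the GFP-positive and 20.3 and 2.39 TPM in the GFP-negative libraries of pools 3 and 4. It was at or near 0 in pools 1 and 2, and in pools 3 and 4 it reached 1 TPM in 3 of 4 libraries.

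Both tested potassium channel genes were called with pools 1 and 2 highest, against 7.85% of all tested genes. kcnh6a (ENSDARG00000001803), the channel of rapid repolarisation in the zebrafish heart, had 5.8 and 11.7 TPM in the GFP-positive and 10.5 and 16.8 TPM in the GFP-negative libraries of pools 1 and 2, against 2.42 and 1.8 TPM in the GFP-positive and 3.72 and 6.07 TPM in the GFP-negative libraries of pools 3 and 4. As deposited the GFP-positive library of pool 1 lay just below the GFP-negative library of pool 4, and with scaling the groups did not overlap. The difference was 2.32 (limma F test, adjusted p = 0.0123), which was lost without pool 2 (adjusted p = 0.0844). kcnq1.1 (ENSDARG00000059798), the pore of the slow repolarising current, had 2.56 and 4.87 TPM in the GFP-positive and 1.13 and 4.03 TPM in the GFP-negative libraries of pools 1 and 2, against 0.13 and 1.61 TPM in the GFP-positive and 0 and 0 TPM in the GFP-negative libraries of pools 3 and 4. It was listed at 0 in both GFP-negative libraries of pools 3 and 4, the groups overlapped as deposited but not with scaling, and the difference was 2.02 (adjusted p = 0.0378). The call was lost as deposited (adjusted p = 0.0558), without pool 3 (adjusted p = 0.0749), without the GFP-negative library of pool 3 (adjusted p = 0.064), with a pseudocount of 0.1 (adjusted p = 0.0913) and with no filter (adjusted p = 0.154).

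Among the members, the pacemaker and inward rectifier channels were low. This does not hold for every channel of these classes, and the inward rectifier kcnj14, which is no member, is given below. HCN4 (ENSDARG00000061685), 1 of 2 identifiers matched to hcn4 and hcn4l, the channel of the pacemaker current, had 4.24 and 4.76 TPM in the GFP-positive and 0.56 and 2.52 TPM in the GFP-negative libraries of pools 1 and 2, against 0.03 and 0 TPM in the GFP-positive and 0.5 and 0 TPM in the GFP-negative libraries of pools 3 and 4. It reached 1 TPM in 3 libraries, all of pools 1 and 2. KCNJ2 (ENSDARG00000019418), an inward rectifier that sets the resting potential, ranged over 0.43 to 2.74 TPM across pools 1 and 2 and 0 to 0.91 TPM across pools 3 and 4, and kcnj12a, a relative, over 0.29 to 1.25 TPM across pools 1 and 2 and 0 to 0.9 TPM across pools 3 and 4. Below the level rule were kcnj11, KCND3, gjd6, atp1a3a and the second identifiers of CASQ1, HCN4, KCNJ2 and ATP1B1. Of the ATP-sensitive potassium channel, ABCC9 (ENSDARG00000015985), the sulphonylurea receptor subunit, had 4.43 and 7.58 TPM in the GFP-positive and 8.66 and 7.81 TPM in the GFP-negative libraries of pools 1 and 2, against 10.6 and 7.16 TPM in the GFP-positive and 8.15 and 3.78 TPM in the GFP-negative libraries of pools 3 and 4. It was not called (limma F test, adjusted p = 0.337), and its difference of 0.93 was -0.01 as deposited. Its pore partner KCNJ8 (ENSDARG00000045589) was too low for the test, at 0 to 1.74 TPM across pools 1 and 2 and 0 to 3.02 TPM across pools 3 and 4.

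Of the sodium-potassium pump, a beta and an alpha subunit gene were called with pools 1 and 2 highest, as were 7.85% of all tested genes. ATP1B1 (ENSDARG00000013144), a beta subunit, had 185 and 217 TPM in the GFP-positive and 343 and 244 TPM in the GFP-negative libraries of pools 1 and 2, against 136 and 103 TPM in the GFP-positive and 149 and 71.7 TPM in the GFP-negative libraries of pools 3 and 4. The groups did not overlap and the difference was 2.19 (limma F test among pools, adjusted p = 0.00379).

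atp1a3b (ENSDARG00000104139), an alpha subunit, which carries the ions, had 64.6 and 92.3 TPM in the GFP-positive and 61.01 and 88.8 TPM in the GFP-negative libraries of pools 1 and 2, against 9.88 and 10.8 TPM in the GFP-positive and 9.2 and 13.5 TPM in the GFP-negative libraries of pools 3 and 4. Its groups were far apart, with a difference of 3.71 (limma F test, adjusted p = 0.000819). ATP1B2 (ENSDARG00000099203), matched to atp1b2a, had 4.32 and 7.79 TPM in the GFP-positive and 7.52 and 8.33 TPM in the GFP-negative libraries of pools 1 and 2, against 13.7 and 5.62 TPM in the GFP-positive and 17.7 and 3.36 TPM in the GFP-negative libraries of pools 3 and 4 and was not called (difference 0.69, or -0.27 as deposited, adjusted p = 0.213). Too low for the test was ATP1B2 (ENSDARG00000034424), at 0.05 to 0.99 TPM across pools 1 and 2 and 0.18 to 3.45 TPM across pools 3 and 4. In the summed TPM of 9 alpha subunit identifiers, atp1a3b held 20.2% to 26.8% across pools 1 and 2 and 1.27% to 4.04% across pools 3 and 4.

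Of 5 tested gap junction identifiers 2 were called, both with pools 1 and 2 highest, against 7.85% of all tested genes. GJA1 (ENSDARG00000041799), connexin 43, matched to gja1b, had 17.4 and 9.6 TPM in the GFP-positive and 16.4 and 19.3 TPM in the GFP-negative libraries of pools 1 and 2, against 0.72 and 1.04 TPM in the GFP-positive and 8.44 and 4.72 TPM in the GFP-negative libraries of pools 3 and 4. The groups did not overlap, and the difference was 2.99 (limma F test among pools, adjusted p = 0.0109), which missed the threshold with no filter (adjusted p = 0.0559). In pools 3 and 4 both GFP-positive libraries were below both GFP-negative ones. Of the sum of gja1b and its paralog gja1a, gja1b made up 77.2% to 88.4% across pools 1 and 2 and 4.13% to 24.3% across pools 3 and 4, so gja1a, which is no member, was the larger part in all libraries of pools 3 and 4.

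GJA5 (ENSDARG00000040065), 1 of 2 connexin 40 identifiers matched to gja5b, had 3.8 and 6.76 TPM in the GFP-positive and 6.58 and 9.8 TPM in the GFP-negative libraries of pools 1 and 2, against 3.46 and 2.23 TPM in the GFP-positive and 7.11 and 1.82 TPM in the GFP-negative libraries of pools 3 and 4. As deposited the groups overlapped, and with scaling they did not. The difference was 1.68 (limma F test, adjusted p = 0.0491), close to the threshold. The call was lost as deposited (adjusted p = 0.141), with scaling by the upper quartile, with a pseudocount of 0.1 and with no filter. It was also lost without each pool in turn (adjusted p = 0.0521 to 0.198) and without the GFP-negative library of pool 3. GJA5 (ENSDARG00000069450), the other identifier, had 8.61 and 4.45 TPM in the GFP-positive and 8.76 and 11.2 TPM in the GFP-negative libraries of pools 1 and 2, against 17.5 and 15.1 TPM in the GFP-positive and 46.3 and 15.6 TPM in the GFP-negative libraries of pools 3 and 4. It was not called (difference -0.31, adjusted p = 0.639), and as deposited all of pools 3 and 4 were above all of pools 1 and 2 (difference -1.31, adjusted p = 0.054). Of the 2 identifiers together, ENSDARG00000069450 held 39.7% to 69.4% across pools 1 and 2 and 83.5% to 89.6% across pools 3 and 4.

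gja4 (ENSDARG00000070357), connexin 37, had 3.71 and 7.45 TPM in the GFP-positive and 3.82 and 4.81 TPM in the GFP-negative libraries of pools 1 and 2, against 0 and 10.6 TPM in the GFP-positive and 12.9 and 7.29 TPM in the GFP-negative libraries of pools 3 and 4. It was not called (limma F test, adjusted p = 0.498), and without the GFP-negative library of pool 3 it was (adjusted p = 0.0427). In that fit pool 3 is 1 library, the GFP-positive one, in which gja4 was listed at 0. Over all libraries the difference of gja4 was 0.72, and it was -0.07 as deposited. GJA3 (ENSDARG00000021889), connexin 46, ranged over 1.46 to 3.17 TPM across pools 1 and 2 and 0 to 2.17 TPM across pools 3 and 4 and was not called (adjusted p = 0.0982).

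Both Popeye domain genes, whose products bind cyclic AMP in heart muscle membranes, were called, against 12.9% of all tested genes. POPDC2 (ENSDARG00000069922) had 33.96 and 40.6 TPM in the GFP-positive and 55.3 and 65.4 TPM in the GFP-negative libraries of pools 1 and 2, against 7.09 and 7.77 TPM in the GFP-positive and 8.09 and 8.25 TPM in the GFP-negative libraries of pools 3 and 4. BVES (ENSDARG00000058548) had 31.02 and 50.6 TPM in the GFP-positive and 54.01 and 47.97 TPM in the GFP-negative libraries of pools 1 and 2, against 8.51 and 11.6 TPM in the GFP-positive and 8.45 and 9.18 TPM in the GFP-negative libraries of pools 3 and 4. Neither overlapped between the pools, and the 4 libraries of pools 3 and 4 lay close together for both. The differences were 3.45 for POPDC2 (limma F test among pools, adjusted p = 0.00102) and 3.15 for BVES (adjusted p = 0.00153).

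None of the 7 calcium store genes, those of inositol trisphosphate receptors, STIM and ORAI proteins, was called, against 12.9% of all tested genes. Over only 7 genes this count is close to that share, and their differences ranged from -1.54 to 1.52. ITPR2 (ENSDARG00000011909), an inositol trisphosphate receptor, which releases store calcium, had 6.89 and 5.92 TPM in the GFP-positive and 4.81 and 8.72 TPM in the GFP-negative libraries of pools 1 and 2, against 4.54 and 5.42 TPM in the GFP-positive and 8 and 7.58 TPM in the GFP-negative libraries of pools 3 and 4 (difference 0.97, limma F test, adjusted p = 0.24). Its groups separated with scaling only, and the difference was 0.04 as deposited. ITPR1 (ENSDARG00000014655), another receptor, had 0.94 and 1.32 TPM in the GFP-positive and 0.5 and 0.39 TPM in the GFP-negative libraries of pools 1 and 2, against 8.57 and 4.52 TPM in the GFP-positive and 12.4 and 6.11 TPM in the GFP-negative libraries of pools 3 and 4. All of pools 3 and 4 lay above all of pools 1 and 2 with and without scaling. The difference of -1.54 was not called (adjusted p = 0.142), while that of -2.27 as deposited was (adjusted p = 0.0208). The other ITPR1 identifier, ENSDARG00000074149, ranged over 0.98 to 2.87 TPM across pools 1 and 2 and 0.94 to 4.58 TPM across pools 3 and 4. Its difference was 0.62, and it was -0.02 as deposited. ENSDARG00000014655 made up 14.8% to 57.4% across pools 1 and 2 and 49.7% to 92.5% across pools 3 and 4 of the sum of both identifiers.

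The sensor STIM1, which detects an empty store, has 2 identifiers matched to stim1a. STIM1 (ENSDARG00000060723) had 2.62 and 3.85 TPM in the GFP-positive and 1.88 and 3.57 TPM in the GFP-negative libraries of pools 1 and 2, against 7.04 and 7.26 TPM in the GFP-positive and 7.42 and 6.83 TPM in the GFP-negative libraries of pools 3 and 4. STIM1 (ENSDARG00000061560) had 3.7 and 4.3 TPM in the GFP-positive and 4.3 and 6.02 TPM in the GFP-negative libraries of pools 1 and 2, against 4.42 and 2.1 TPM in the GFP-positive and 5.26 and 3.04 TPM in the GFP-negative libraries of pools 3 and 4. For ENSDARG00000060723 all of pools 3 and 4 were above all of pools 1 and 2 as deposited but not with scaling, and for ENSDARG00000061560 pools 1 and 2 were above with scaling only. Neither was called (limma F test, adjusted p = 0.764 and 0.18). Within a library, however, ENSDARG00000060723 made up 30.4% to 47.2% across pools 1 and 2 and 58.5% to 77.6% across pools 3 and 4 of the sum, without overlap, and its share was higher in the GFP-positive library in 4 of 4 pools. The 2 identifiers of ORAI1, the store-operated channel itself, ranged over 0.61 to 5.58 TPM across pools 1 and 2 and 0 to 3.57 TPM across pools 3 and 4 for ENSDARG00000011515 and 0 to 2.96 TPM across pools 1 and 2 and 0 to 1.49 TPM across pools 3 and 4 for ENSDARG00000004154 (adjusted p = 0.0898 and 0.255).

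Between the labelled sorts no member was called. This comparison used the same limma model, GFP-positive minus GFP-negative within pools, and 0 of 39 members had an adjusted p under 0.05, against 0% of all 13877 genes. Member adjusted p-values lay between 0.853 and 0.998. At an unadjusted p under 0.05 there were 2 of 39 members, against 5.55% of all genes. The member differences ran from -0.96 to 0.88 (log2), with standard errors of 0.20 to 0.62 and a median of -0.08, against 0.01 for all genes. Higher in the GFP-positive libraries were 14 members and lower 25. By pool the member median was -0.13, 0.12, -0.09 and 0.08 in pools 1 to 4. The sign was the same in 4 of 4 pools for 6 of 39 members, against 13.7% of all genes.

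GJA1 averaged 7.19 ± 7.95 TPM in GFP-positive and 12.2 ± 6.79 TPM in GFP-negative libraries (SD, n = 4 each), where the SD takes in the differences among pools. Its difference was -0.96 with a 95% confidence interval of -1.88 to -0.04, lower in 3 of 4 pools, with an unadjusted p of 0.0435 and an adjusted p of 0.853 in limma. camk2d2 averaged 5.07 ± 3.02 TPM in GFP-positive and 2.89 ± 3.01 TPM in GFP-negative libraries (SD, n = 4 each). The difference was 0.88, higher in 4 of 4 pools, with an unadjusted p of 0.0495 and an adjusted p of 0.853 in limma. kcnq1.1 and STIM1 (ENSDARG00000060723) were also higher in GFP-positive libraries in 4 of 4 pools, by 0.68 and 0.24. RYR2, kcnh6a and STIM1 (ENSDARG00000061560) were lower in 4 of 4, with differences of -0.31, -0.62 and -0.17. None of these passed the adjustment. The 95% confidence intervals of the label difference were -0.67 to 0.43 for pln1, -1.17 to 0.24 for atp2a2a, -0.89 to 0.28 for RYR2 and -0.91 to 0.24 for SLC8A1 (ENSDARG00000013422). They were wider for some other calcium genes, at -2.06 to 0.14 for CASQ1 (ENSDARG00000018105) and -1.51 to 0.38 for trdn.

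**Figure D4:**
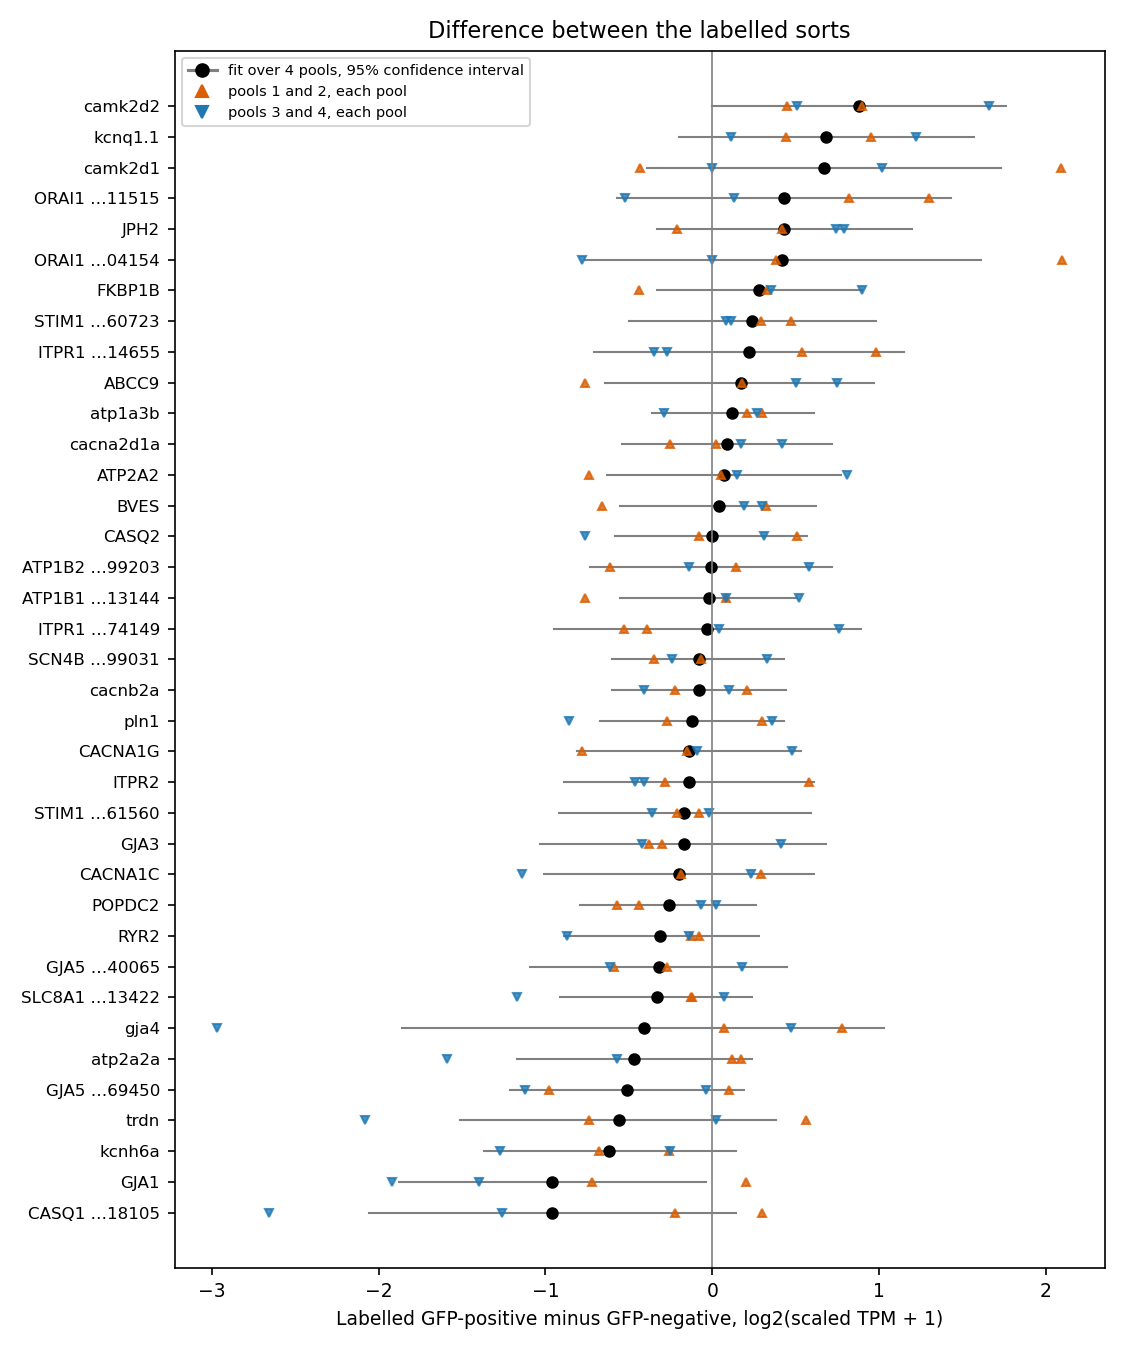
Difference between the libraries labelled GFP-positive and GFP-negative (x axis, log2) for 37 of the 39 tested identifiers, sorted by size. Black points are the limma estimates over 4 pools with 95% confidence intervals, and triangles are the single pools. The estimates run from -0.96 to 0.88, and no member passed the adjustment over all genes.

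Other genes of the same pathway, 163 identifiers from 4 lists that are not members, gave 75 tested genes. The F test among pools called 18 of them, 24%, against 12.9% of all tested genes. Pools 1 and 2 were highest in 17, against 7.85% of all genes, and pools 3 and 4 in 1, against 4.55%. As deposited the numbers were 8 and 14, against 4.68% and 22.6% of all genes. The median difference of the 75 genes was 0.24, against 0.03 for all genes. Between the labels none was called, against 0% of all genes, and 4 had an unadjusted p under 0.05, against 5.55%. SRL (ENSDARG00000104587), sarcalumenin, a calcium binding protein of the store, ranged over 40.5 to 90.6 TPM across pools 1 and 2 and 0.07 to 9.96 TPM across pools 3 and 4, a difference of 4.85 (limma F test, adjusted p = 0.00113). hrc (ENSDARG00000045947), the histidine-rich calcium binding protein, ranged over 26.4 to 51.2 TPM across pools 1 and 2 and 0.55 to 16.2 TPM across pools 3 and 4 (3.43, adjusted p = 0.00736). SCN3B (ENSDARG00000062359), a sodium channel beta subunit, ranged over 35.9 to 52.96 TPM across pools 1 and 2 and 17.2 to 29.9 TPM across pools 3 and 4 (2.11, adjusted p = 0.00586). CAVIN1 (ENSDARG00000059362), a coat protein of caveolae, ranged over 39.6 to 50.7 TPM across pools 1 and 2 and 21.3 to 71.1 TPM across pools 3 and 4, overlapping as deposited (1.55, adjusted p = 0.045). The call of CAVIN1 was lost as deposited (limma F test, adjusted p = 0.345). In the opposite direction, fkbp1ab (ENSDARG00000033567), a relative of FKBP1B, had 2.8 and 0.13 TPM in the GFP-positive and 8.4 and 0.17 TPM in the GFP-negative libraries of pools 1 and 2, against 64.9 and 32.4 TPM in the GFP-positive and 11.4 and 22.9 TPM in the GFP-negative libraries of pools 3 and 4. Its difference was -2.62 (limma F test, adjusted p = 0.0326), and pool 1 stood between pool 2 and pools 3 and 4. All of pools 3 and 4 lay above all of pools 1 and 2 as deposited, but with scaling the groups overlapped.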

How the data were processed

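CASAVA 1.8.2, cutadapt, RSEM 1.2.25 and genome build Zv9 are named in the submitters' processing notes. The aligner is not given in the sources used here. TPM values were made and deposited by the authors, and each library sums to 1000000 within rounding, so the depth, and any interval that needs it, is unknown. Per the labels' protocols, libraries of 60-base single reads were made from 0.2 to 0.6 ng of RNA. The protocol text also speaks of mCherry cells of the apex and a second library kit, and grouping followed the sample titles. The gene name table and RefSeq synonyms (assembly GRCz12tu, names only) gave symbols, and 28 names matched by symbol, 8 by synonym and 15 without the paralog letter. The files give no gene coordinates, and near-identical paralogs may share reads, so paralog splits are uncertain.

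Libraries were scaled by a trimmed mean of log ratios (30% of ratios and 5% of abundances trimmed) over genes with at least 1 TPM in 4 libraries. limma 3.58.1 in R 4.3.3 was run on log2(scaled TPM + 1) with a mean-variance trend, pool as a block and Benjamini-Hochberg adjustment over 13877 genes. On simulated data the share of false calls among pools was above the threshold of the adjustment. The calls among pools may therefore hold more false ones than that threshold states. How well the model recovers label differences of the size seen here was not tested. Python 3.11.15, pandas 2.3.3 and matplotlib 3.10.9 made the tables and figures. The block rests on the series' statement that the replicates are paired and on the pool label, and same-numbered libraries correlated in their deviations (r = 0.492, 0.537, 0.446 and 0.403). Differently numbered libraries within pools 1 and 2 or within pools 3 and 4 correlated about as strongly (r = 0.552, 0.474, 0.437 and 0.382), and the GFP-positive library of pool 1 correlated best with the GFP-negative library of pool 2, so this check does not tell the pairs apart from the split of the pools.

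The members, the pathway lists and the pool contrast were chosen with earlier results of these data known. Values in every library are given for up to 4 members per role with the highest mean TPM and for members with pools 3 and 4 entirely above, other members by range, and in the other pathway lists for up to 4 called genes per direction. RYR2, which that rule gives by range, and the ratios were chosen after values were seen. Results of some genes are not reported here, while counts over the members include them. Alternatives changed the scaling, pseudocount, filter, variance estimation and block, and left out each pool or the GFP-negative library of pool 3.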

Additional observations from a re-analysis of the deposited data

Results flagged for a closer look

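Within each labelled sort, 88 groups of 4 libraries were examined for a library far from the other 3 on the log2(scaled TPM + 1) scale, and 4 such libraries were found. For values drawn from a single distribution, chance gives about 1 in 20 groups, which is near the share found here. Each group joins libraries of pools 1 and 2 with libraries of pools 3 and 4, so that rate may not hold. Of the 4 flagged libraries, 2 concern genes at or near 0 in most libraries. KCNJ8 was at 1.05 TPM in the GFP-negative library of pool 1 and at 0 in the other 3. SCN4B (ENSDARG00000060319) was at 10.64 TPM in the GFP-positive library of pool 3 and at 0 in the other 3.

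The remaining 2 concern genes measured above 0 in all 8 libraries. GJA5 (ENSDARG00000069450) was at 46.29 TPM in the GFP-negative library of pool 3, against 8.76, 11.2 and 15.6 TPM in the GFP-negative libraries of pools 1, 2 and 4. ATP1B2 (ENSDARG00000099203) was low at 3.36 TPM in the GFP-negative library of pool 4, against 7.52, 8.33 and 17.7 TPM in those of pools 1, 2 and 3.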

How the results depend on the processing

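Of the 22 members called among pools, 13 kept the call and direction under every alternative in which they were tested, and 9 lost the call at least once. As deposited, without scaling, 4 members were called with pools 3 and 4 highest (1 with scaling), against 22.6% of all genes (4.55% with scaling). Entirely above in pools 1 and 2 lay 15 members (27 with scaling), against 6.26% of all genes (14.5% with scaling). Entirely above in pools 3 and 4 lay 7 (2 with scaling), against 33.4% (12.1% with scaling). As deposited 4007 genes, 28.9%, were called (1787, or 12.9%, with scaling). The member median was 0.88 as deposited (1.76 with scaling). With no filter on low values 14 members and 884 genes were called, and 0 members were called with pools 3 and 4 highest. That fit covers more genes, whose number is not given here, so these counts cannot be read as shares. The member median was 2.26 with a pseudocount of 0.1 and 1.00 with a pseudocount of 5. Leaving out libraries moved the member median between 1.75 and 2.02, the genes called among pools between 1065 and 1413, the members entirely above in pools 3 and 4 between 2 and 4 (4 without pool 3) and the genes called between the labels between 0 and 1 (1 without pool 3 and 1 without its GFP-negative library). In those fits a pool reduced to 1 library is assumed to vary like the others. A complete separation of the pools is easier to reach with fewer libraries, and its share over all genes is not given for those fits. Without the replicate block the comparison of labels called 0 members and 0 genes, so the paired fit changed no call there. The cause of these moves was not tested, except that leaving out libraries reduces the sample. Depth is unknown and sets no limit that can be stated.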

Other observations

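Several related genes outside the member list were named after their values were seen. kcnj14 (ENSDARG00000075914), an inward rectifier, ranged over 16.1 to 21.6 TPM across pools 1 and 2 and 0.32 to 4.7 TPM across pools 3 and 4, a difference of 3.55 (limma F test among pools, adjusted p = 0.00263). pln2 (ENSDARG00000097256), the second phospholamban gene, ranged over 21.9 to 39.4 TPM across pools 1 and 2 and 8.74 to 16.2 TPM across pools 3 and 4 (2.28, adjusted p = 0.00268), and pln1 made up 97.6% to 98.5% across pools 1 and 2 and 90.7% to 93.8% across pools 3 and 4 of their sum. SCN10A (ENSDARG00000102312), a sodium channel pore, ranged over 3.22 to 4.27 TPM across pools 1 and 2 and 0 to 1.13 TPM across pools 3 and 4 (2.09, adjusted p = 0.0395). The call of SCN10A was lost as deposited (limma F test, adjusted p = 0.102). CACNB4 (ENSDARG00000009738), a calcium channel beta subunit of the other pathway lists, ranged over 5.61 to 10.8 TPM across pools 1 and 2 and 0.14 to 2.37 TPM across pools 3 and 4 (2.67, adjusted p = 0.0113).

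In the opposite direction, cacna1eb (ENSDARG00000095614), an R-type calcium channel pore, ranged over 0.16 to 0.41 TPM across pools 1 and 2 and 4.99 to 10.9 TPM across pools 3 and 4. No library of pools 1 and 2 reached 1 TPM, so the gene met the test level only through pools 3 and 4. Its test result is therefore not given.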
